A study of Mus musculus with 9 samples.

Results

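The genes described here are those of mouse liver whose symbols belong to the families that carry out autophagy, acidify and fill the lysosome, and sort cargo between endosomes. They were taken by symbol alone: Atg, Ulk, Wipi, Gabarap, Map1lc3, Sqstm1, Atp6v, Cts, Lamp, Lamtor, Rrag, Vps and Snx. Of the 62 symbols in the table that match, 59 had a mean of at least 1 TPM (transcript abundance corrected for length and library total) over the 9 libraries and were tested, among 4665 genes tested and 5608 genes listed. The 3 others were Vps37d at 0.173 ± 0.104 TPM in FED and 0.727 ± 0.146 in IF (SD, n = 3 each), and the Rag GTPase genes Rragd and Rragb, which averaged below 1 TPM in every group. The familiar Gabarapl1, Ulk1, Atg5, Atg7, Lamp1, Ctsb, Ctsd and Ctss were not analysed here, since the table used here covers a part of the transcriptome. Vps72, which matches by name, encodes a subunit of a chromatin remodelling complex and not a sorting protein.

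All mice were C57BL/6J with the wild-type genotype. FED mice had free access to standard diet, IF (intermittent fasting) mice had food withheld for 24 h, 2 times a week, and FMD mice received a commercial fasting-mimicking diet for 3 days. Livers were collected on the day after the last day of fasting or FMD, and whole-liver mRNA was sequenced from 3 mice per group. Replicate numbers run from 1 to 3 except in FMD, where they are 1, 2 and 4, and neither age nor sex is given in the sources used here.

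In autophagy, a double membrane grows around cytoplasm and damaged organelles, closes into an autophagosome and fuses with a lysosome. The ULK kinase complex starts the process, ATG8 proteins (the LC3 and GABARAP families) are coupled to the membrane, and receptors such as p62/SQSTM1 tie cargo to them. The vacuolar H+-ATPase (V-ATPase) acidifies the lysosome so that cathepsins can digest the cargo, while mTORC1, held on the lysosomal surface by Ragulator and the Rag GTPases, restrains autophagy when nutrients are plentiful. Retromer, ESCRT complexes and sorting nexins decide which proteins return from endosomes and which go on to the lysosome. In the liver, this pathway supplies amino acids and lipids during fasting.

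Many lysosomal genes carry in their promoters the palindrome CACGTG, the core of the CLEAR element bound by TFEB, a transcription factor that mTORC1 keeps out of the nucleus. RefSeq promoter windows, from 250 bases before to 50 after the start, were searched for it. The windows were matched for 44 of the 59 genes (48 windows, GRCm38.p6). CACGTG, which reads the same on both strands, was present in 7 of the 48 windows (14.6%) and in 7.15% of all 32851 windows. The longer form TCACGTGA, which contains CACGTG, was present in 2 windows (4.17%, Atp6v0e and Ctsa) and in 0.974% of all. The 7 genes were Ctsa, Ctsf, Ctsl, Lamtor1, Lamtor4, Atp6v0e and Snx18, and no match was found in the windows of Sqstm1, Map1lc3b and Ulk2. Stretches upstream of the start are shown for the 3 cathepsin genes, whose transcripts are described below as higher after FMD, and for Lamtor1, whose transcript did not pass the test. They are written 5′ to 3′ on the strand of the gene, with CACGTG in capitals.
Ctsa, chr2:164833724-164833772, plus strand, motif 12 bases before the start: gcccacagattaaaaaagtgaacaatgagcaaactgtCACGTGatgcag
Ctsf, chr19:4855049-4855128, plus strand, motif 79 bases before the start: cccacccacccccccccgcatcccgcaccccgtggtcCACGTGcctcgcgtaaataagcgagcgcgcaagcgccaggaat
Ctsl, chr13:64370714-64370770, minus strand, motif 236 bases before the start: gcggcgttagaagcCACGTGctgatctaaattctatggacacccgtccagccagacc
Lamtor1, chr7:101905732-101905811, plus strand, motif 68 bases before the start: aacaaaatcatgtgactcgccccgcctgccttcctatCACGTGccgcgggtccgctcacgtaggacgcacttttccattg
These matches describe letters in a window and not binding, and the motif was present both in genes that rose and in genes that did not pass the test.

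Values are log2 fold changes of TPM + 1 from limma, fitted to all genes tested in the 9 libraries. A gene is called differentially expressed, higher (rose) or lower (fell), if its adjusted p is under 0.05 and its change exceeds 1.5-fold, here the fold limit. At the adjusted p alone, 1112 of the 4665 genes passed in IF vs FED, 3135 in FMD vs FED and 355 in FMD vs IF. At an unadjusted p under 0.05, 1677, 3216 and 1525 were higher and 156, 132 and 121 lower. The listed genes, a part of the transcriptome, lay higher after both diets. They held 26.3 to 29.3% of all TPM in FED, 32.9 to 34.9% in IF and 34.9 to 43% in FMD libraries. In the study's own calls, more genes were lower than higher in each diet relative to FED. The upward shift is described for the listed genes alone, and the rest of the transcriptome was not examined here. Over all 4665 genes, the median log2 fold change was 0.24 in IF and 0.48 in FMD relative to FED, and 0.24 between the diets (FMD vs IF). For this reason, the main results are also given on scaled values, where every library was divided by its median ratio to a geometric mean library. FMD replicate 1 stood apart, with a scaling factor of 1.43 against 0.815 to 1.14 in the other 8 libraries, and it was the highest of the 9 libraries for 44 of the 59 genes (74.6%, against 65.8% of all genes). The macrophage and lysosome gene Cd68 was at 64.0 TPM in that library and between 3.14 and 12.2 TPM in the others. Of 15 macrophage markers listed, 2 were in the table (Cd68 and Mpeg1), and their sum ranged from 26.3 to 34.9 TPM in FED, 13.4 to 16.0 in IF and 10.8 to 82.1 in FMD. Of 13 hepatocyte markers, the 2 in the table, Ass1 and Hpx, summed to 5540 to 11143 TPM across all libraries, with neither called in any comparison. Mpeg1, at 26.2, 16.0 and 26.6 TPM in FED and 18.1, 12.1 and 5.08 TPM in FMD, was called lower in both diets. Of 3 stellate cell genes in the table, Dcn and Ecm1 rose in both diets and Col1a1 (0.27 to 1.63 TPM) was not called. The sinusoidal endothelial gene Oit3 (6.35 to 17.2 TPM) was called higher in FMD vs FED and in FMD vs IF, and the cholangiocyte gene Krt19 (0.760 to 4.07 TPM) was not called. No neutrophil or lymphocyte marker was in the table used here. In whole liver, a change in the number of cells of a type and a change in RNA per cell cannot be told apart, and the part of these markers in the results was not tested.

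In IF vs FED livers, 6 of the 59 genes rose (10.2%) and 1 fell (1.69%). Of all genes tested, 10.3% rose and 1.59% fell, so these genes were called about as often as any other. The genes that rose were Ctsf (0.99), Map1lc3a (0.97), Atp6v0d2 (0.84), Snx21 (0.80), Snx33 (0.64) and Map1lc3b (0.62), and Ulk2 fell (-0.66). The median of the 59 genes was 0.22, close to the 0.24 of all genes, and 27 of them lay above it. On scaled values, 2 rose (Ctsf and Map1lc3a) and 1 fell (Ulk2), against 3.69% and 3.45% of all genes. IF and FED libraries were fully separated for 37 genes (62.7%, all genes 60.6%), of which 34 were higher in IF and 3 lower, namely Ulk2, Vps28 and Lamtor2. On scaled values, 22 genes (37.3%) were separated, 12 of them higher and 10 lower, against 23.2% and 23% of all genes. The excess of higher genes thus did not hold after scaling. Leaving out FED replicate 2 or IF replicate 2 reduced the count of genes that rose to 3, and without FED replicate 2 the fall of Ulk2 was no longer called.

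In FMD vs FED livers, 17 of the 59 genes rose (28.8%) and none was called lower by limma, against 35.5% and 1.59% of all genes. Ulk2 was lower and passed the adjusted p, but not the fold limit. The median of the 59 genes was 0.47, beside 0.48 for all genes, with 28 of the 59 above the latter. On scaled values, Sqstm1 and Map1lc3b rose and Ulk2 fell, against 5.49% and 5.64% of all genes. The groups did not overlap for 48 genes (81.4%, all genes 70.7%), 47 of them higher in FMD. On scaled values, this turned to 8 higher and 13 lower (21 genes, 35.6%), against 18.5% and 18.2% of all genes, and the median turned to -0.04. Without FMD replicate 1, 14 genes rose, the calls of Ulk3, Wipi2, Snx6 and Snx7 being lost. Without FMD replicate 2 or replicate 4, 26 rose. The IF and FMD comparisons use the same 3 FED libraries. Ctsf, Map1lc3a, Map1lc3b, Snx21 and Snx33 were called in both, 2 genes in IF alone, 12 in FMD alone and 40 in neither.

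In FMD vs IF livers, Sqstm1 was the single gene called by limma (1.69%, 20 genes at an unadjusted p under 0.05, against 4.67% of all genes higher and 0.472% lower). It was also the single gene called on scaled values, where 1.11% of all genes were higher and 1.11% lower. The groups did not overlap for 18 genes, all higher in FMD as deposited (30.5%, all genes 36.7%). On scaled values, they did not overlap for 15 genes (25.4%), 9 higher and 6 lower, against 12.7% and 13.6% of all genes. At the adjusted p alone, Atp6v0a2 and Atg13 passed too. The count of 1 gene called higher was 0 without any single FED or IF library, 3 without FMD replicate 2 and 11 without FMD replicate 4.

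**Figure D1:**
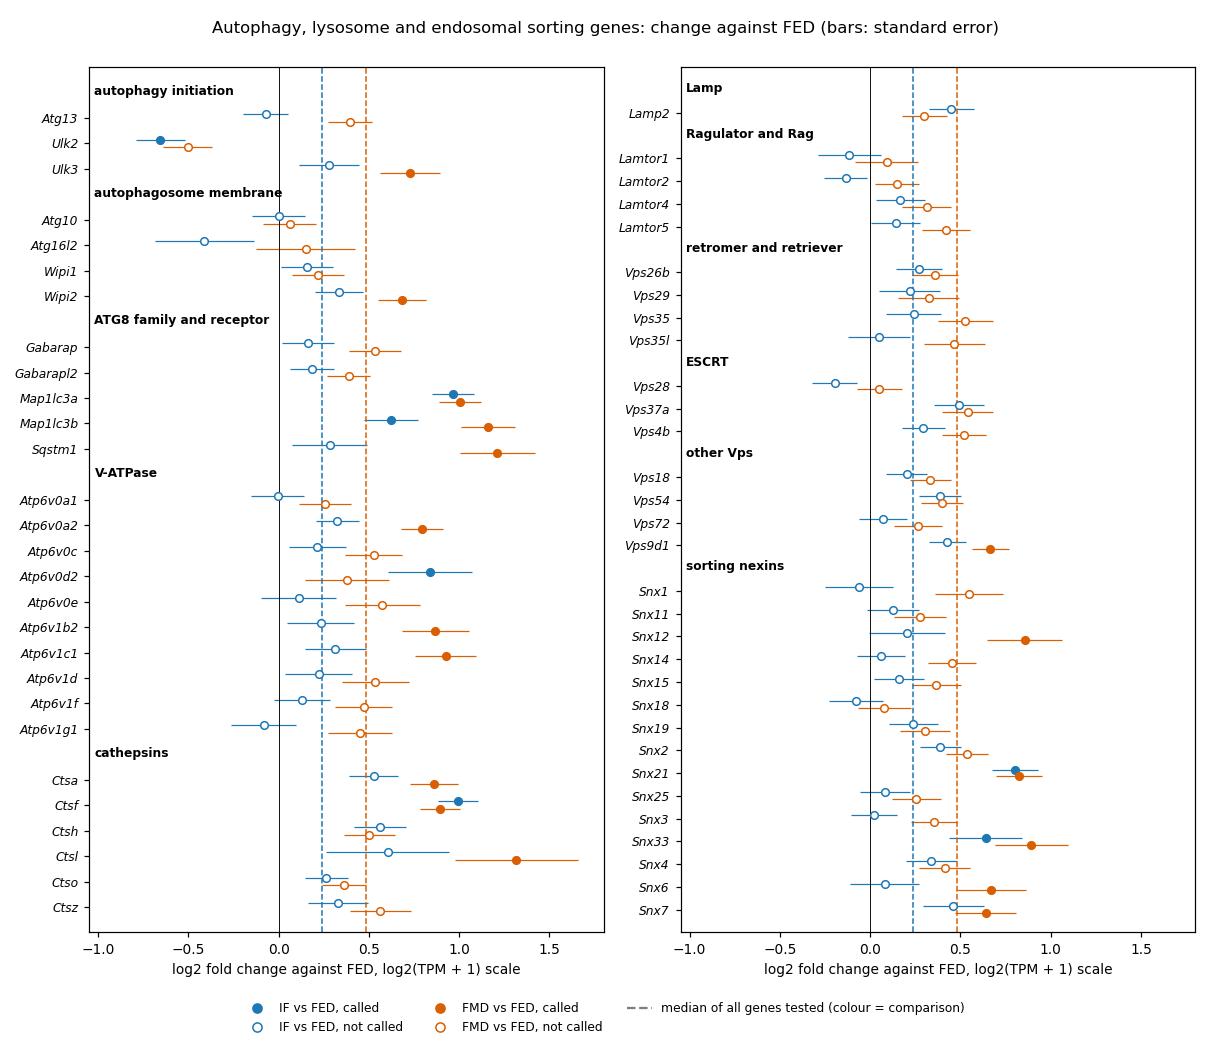
Log2 fold change against FED on the log2(TPM + 1) scale (x axis) of the 59 genes, listed by role, with points for IF (blue) and FMD (orange), filled where the gene was called, bars for the standard error and dashed lines for the medians of all genes tested (0.24 and 0.48). Ctsf and Map1lc3a have the largest IF values (0.99 and 0.97), Ctsl and Sqstm1 the largest FMD values (1.32 and 1.21), and Ulk2 lies furthest to the left (-0.66 and -0.50).

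The ATG8 family and the receptor p62 had the highest median of the role groups in FMD. Of these 5 genes, 2 rose in IF and 3 in FMD, where 10.3% and 35.5% of all genes rose. Their FMD median was 1.0, beside 0.48 for all genes. Sqstm1 (NCBI gene 18412), the cargo receptor that links ubiquitinated proteins to LC3, had the highest mean of the 59 genes in FMD, while Lamp2 had the highest in FED and IF. Sqstm1 was at 332, 320.1 and 324 TPM in FED, 405, 406 and 377 TPM in IF and 1137, 646 and 584 TPM in FMD livers. The FMD libraries lay above all others and IF lay above FED without overlap, with FMD replicate 1 near 2 times the level of the others in its group. In FMD vs FED, Sqstm1 rose by 1.21 ± 0.208 (SE, limma adjusted p = 0.00115), and by 0.66 on scaled values (adjusted p = 0.010). Without FMD replicate 1 it rose by 0.92, and the scaled value without that library was 0.48, under the fold limit. In IF vs FED it was 0.28 (adjusted p = 0.332). In FMD vs IF it rose by 0.93 (limma adjusted p = 0.0315; 0.66 and 0.0394 on scaled values), a call that was lost when any single FED or IF library was left out (adjusted p up to 0.117).

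Map1lc3a (NCBI gene 66734) and Map1lc3b (NCBI gene 67443) encode LC3A and LC3B, the ATG8 proteins by which autophagosomes are usually followed. Map1lc3a was at 43.8, 45.5 and 52.1 TPM in FED, 102, 89.8 and 87.0 TPM in IF and 100.1, 87.9 and 98.4 TPM in FMD livers. Both diet groups lay at about the same level, above FED without overlap, and the IF and FMD libraries were intermingled. It rose by 0.97 ± 0.118 in IF livers (SE, limma adjusted p = 0.000511) and by 1.0 in FMD livers (0.000173). FMD vs IF was 0.04 (adjusted p = 0.815). On scaled values, the IF rise was 0.69 (limma adjusted p = 0.00433), while FMD was 0.46, under the fold limit. Map1lc3b was at 57.0, 50.4 and 57.2 TPM in FED, 85.4, 87.2 and 82.2 TPM in IF and 126, 152 and 98.5 TPM in FMD livers. All 3 groups were separated, in the order FED, IF, FMD. It rose by 0.62 in IF (limma adjusted p = 0.0145; 0.35 and 0.147 on scaled values) and by 1.16 in FMD (0.000290; 0.61 and 0.0160 on scaled values). The IF call was lost without FED replicate 2 and without IF replicate 1 or 2. Its FMD vs IF value was 0.54 (adjusted p = 0.0518), which did not pass the test.

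The GABARAP branch, which acts late in autophagosome maturation, was not called in either diet. Gabarap was at 184, 184 and 182 TPM in FED, 219, 201 and 196 TPM in IF and 337, 235 and 236 TPM in FMD livers. The FED libraries lay within 2 TPM of each other and both diet groups were above them, but the size stayed under the fold limit at 0.16 in IF and 0.53 in FMD (limma adjusted p = 0.00882). Gabarapl2 had 0.18 in IF and 0.39 in FMD (adjusted p = 0.0169). Pseudogenes named after Gabarapl2 could share its reads, so its level is uncertain.

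Among the genes that start autophagy, Ulk2 went the other way. Ulk2 (NCBI gene 29869), 1 of the kinases at the head of the pathway, was at 15.8, 19.7 and 16.2 TPM in FED, 11.3, 9.78 and 10.5 TPM in IF and 9.89, 12.9 and 12.8 TPM in FMD livers. Every IF and FMD library lay below every FED library. In IF, it fell by 0.66 (limma adjusted p = 0.00817), and on scaled values by 0.92 (adjusted p = 0.00842). Without FED replicate 2, the highest FED library, the IF value was -0.56, under the fold limit. In FMD, it was -0.50 (adjusted p = 0.00925) and was called on scaled values alone, where it fell by 1.02 (adjusted p = 0.00355). It was the one gene of the 59 whose FMD libraries all lay below FED.

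Ulk3, a related kinase also known from Hedgehog signalling, was at 2.50, 2.47 and 2.91 TPM in FED, 4.02, 3.26 and 2.96 TPM in IF and 6.65, 4.02 and 4.61 TPM in FMD livers. The lowest FMD library equalled the highest IF library, and FED lay below both groups. It rose in FMD by 0.73 (limma adjusted p = 0.00415), but by 0.55, under the fold limit, without FMD replicate 1. Atg13, the subunit that binds ULK kinases into a complex, was -0.07 in IF and 0.39 in FMD, and 0.47 in FMD vs IF (adjusted p = 0.0464). Among the 4 genes that act on the growing membrane, Wipi2, which recruits the LC3-coupling machinery to phosphoinositide on the membrane, was at 23.4, 24.1 and 23.4 TPM in FED, 34.1, 27.2 and 29.1 TPM in IF and 45.3, 37.2 and 33.7 TPM in FMD livers. The FMD libraries were the highest 2 with 1 IF library just above the third, and Wipi2 rose in FMD by 0.68 (limma adjusted p = 0.00208; 0.57 without FMD replicate 1). Its paralogue Wipi1 (0.16 and 0.22), the E2-like enzyme gene Atg10 (0.00 and 0.06) and Atg16l2 (-0.41 and 0.15) were not called in IF or FMD.

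**Figure D2:**
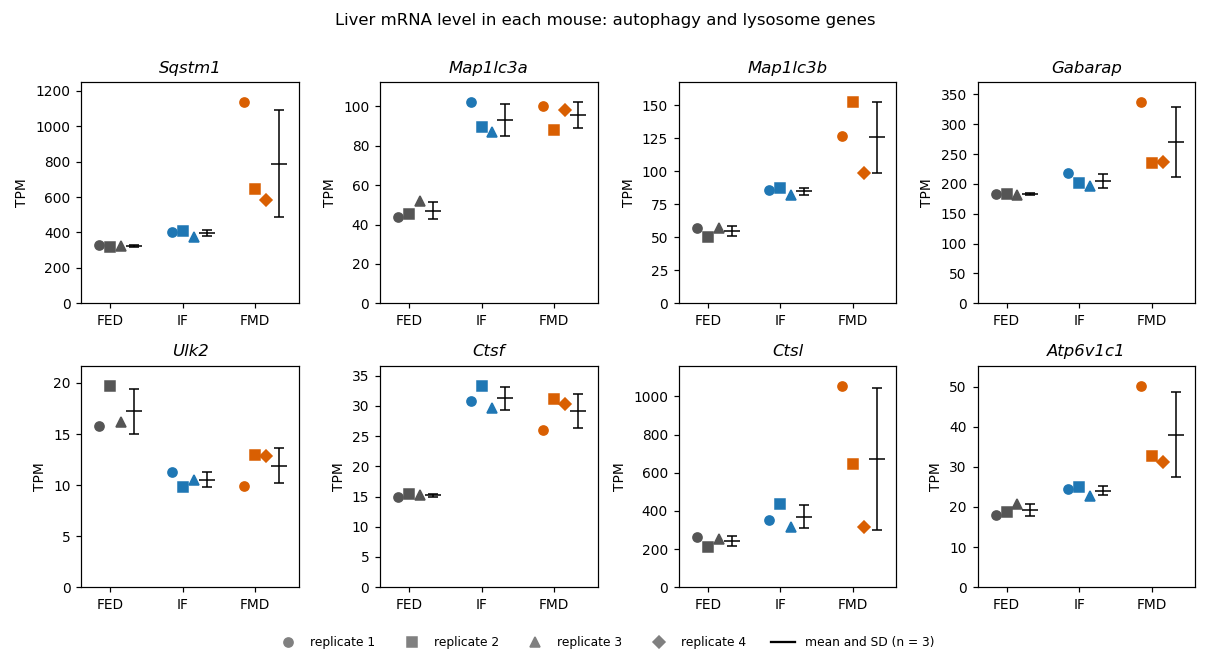
TPM in each of the 9 libraries (points, 3 per group) with group means and SD for Sqstm1, Map1lc3a, Map1lc3b, Gabarap, Ulk2, Ctsf, Ctsl and Atp6v1c1, each panel on its own linear axis from 0. Map1lc3a and Ctsf reach about the same level in IF and FMD, Sqstm1 and Ctsl are highest in FMD with FMD replicate 1 on top (1137 and 1057 TPM), and Ulk2 is lower in both diets.

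The cathepsins, the main lysosomal proteases, lay high in both diets relative to FED. All 6 tested were above the median of all genes in IF (their median was 0.54) and 5 of 6 in FMD (0.71). Of them, 1 was called higher in IF and 3 in FMD, where 10.3% and 35.5% of all genes were. Ctsf (NCBI gene 56464), a cysteine protease, had the largest IF rise of the 59 genes. Its levels were 14.96, 15.4 and 15.2 TPM in FED, 30.8, 33.3 and 29.6 TPM in IF and 26.0, 31.2 and 30.3 TPM in FMD livers. The FED libraries were within 1 TPM of each other, and the lowest diet library was far above them. Ctsf rose by 0.99 ± 0.110 in IF (SE, limma adjusted p = 0.000377; 0.73 and 0.00997 on scaled values), in all 22 alternative settings. In FMD, it rose by 0.89 (adjusted p = 0.000233), but on scaled values it was 0.37 (adjusted p = 0.0964).

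Ctsl (NCBI gene 13039), a broad endopeptidase, had the largest FMD rise and also the largest SE. It was at 263, 209.9 and 250.5 TPM in FED, 355, 434 and 317 TPM in IF and 1057, 647 and 314 TPM in FMD livers. The 3 FMD libraries ran from a value just below the IF range to more than 3 times that level, while FED and diet groups did not overlap. It rose in FMD by 1.32 ± 0.341 (SE, limma adjusted p = 0.00745), by 0.91 without FMD replicate 1 and by 1.78 without FMD replicate 4. On scaled values it was 0.76 (adjusted p = 0.0859), and in IF 0.60 (adjusted p = 0.210), neither of which passed. Cd68 had the same order of FMD libraries (64.0, 12.2 and 5.75 TPM), as had Mpeg1, the macrophage gene called lower in FMD vs FED. The part of macrophages in the Ctsl values was not tested.

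Ctsa, the carboxypeptidase that also protects lysosomal β-galactosidase and neuraminidase, was at 47.2, 44.6 and 48.1 TPM in FED, 67.9, 66.9 and 68.1 TPM in IF and 106, 75.3 and 78.3 TPM in FMD livers. Its 3 groups were separated in the order FED, IF, FMD. Ctsa rose in FMD by 0.86 (limma adjusted p = 0.000711), and its IF value of 0.53 (adjusted p = 0.0180) stayed under the fold limit.

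The aminopeptidase Ctsh was at 187, 179.8 and 186 TPM in FED, 282, 268 and 268 TPM in IF and 216, 254 and 325 TPM in FMD livers. IF lay between 268 and 282 TPM while FMD was spread on both sides of it, and the values were 0.56 in IF (limma adjusted p = 0.0174) and 0.50 in FMD (0.0111), both under the fold limit. Ctsz had 0.33 and 0.56, and Ctso 0.26 and 0.36. Lamp2, a major protein of the lysosomal membrane needed for chaperone-mediated autophagy, was at 359, 369 and 375 TPM in FED, 535, 506 and 467 TPM in IF and 390.2, 509.9 and 466 TPM in FMD livers. It had 0.45 in IF (adjusted p = 0.0243) and 0.30 in FMD (0.0505). FMD replicate 1, the highest library for most of these genes, was the lowest diet library for Lamp2.

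The V-ATPase was tested by 10 subunit genes, of which 1 was called higher in IF and 3 in FMD, near the share of all genes (10.3% and 35.5%). In FMD vs IF, none was called by limma (5 higher at an unadjusted p under 0.05, and 1 at the adjusted p alone). Of all 4665 genes, 1525 were higher at that unadjusted p and 355 passed the adjusted p. The value of 9 of the 10 was higher than the median of all genes, all 5 of the cytosolic V1 sector among them (V1 median 0.53, all genes 0.24). Atp6v1c1, the C subunit that holds the V1 and membrane sectors together, was at 17.9, 18.7 and 20.8 TPM in FED, 24.5, 24.9 and 22.7 TPM in IF and 50.2, 32.6 and 31.2 TPM in FMD livers. IF was above FED and FMD above IF, without overlap. It rose in FMD by 0.92 (limma adjusted p = 0.00146), and was 0.39 on scaled values (adjusted p = 0.0210), under the fold limit. FMD vs IF was 0.61 (adjusted p = 0.0505).

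Atp6v1b2, a B subunit of the head that hydrolyses ATP, was at 19.9, 18.6 and 21.8 TPM in FED, 25.8, 23.0 and 22.6 TPM in IF and 51.1, 36.5 and 28.0 TPM in FMD livers. The FMD libraries lay above IF and IF above FED. It rose in FMD by 0.87 (limma adjusted p = 0.00312; 0.65 without FMD replicate 1). Atp6v0a2, an a subunit of the proton path in the membrane, was at 6.83, 7.24 and 6.74 TPM in FED, 10.2, 8.48 and 8.23 TPM in IF and 13.4, 13.3 and 11.7 TPM in FMD livers. The FMD libraries lay above IF and IF above FED, close together within each group, and Atp6v0a2 rose in FMD by 0.79 (limma adjusted p = 0.000575). Its FMD vs IF value was 0.47 (adjusted p = 0.0413), under the fold limit. The low-level gene Atp6v0d2, a d subunit best known from osteoclasts and macrophages, was called in IF and not in FMD. It was at 0.400, 0.700 and 0.440 TPM in FED, 1.16, 2.27 and 1.78 TPM in IF and 1.08, 1.65 and 0.370 TPM in FMD livers. It rose in IF by 0.84 (limma adjusted p = 0.0253), not on scaled values (0.74, adjusted p = 0.0549). In FMD it was 0.38 (adjusted p = 0.164), with FMD replicate 4 below every FED library. The IF call was lost without any single FED library and without IF replicate 2 or 3. The 2 macrophage markers in the table summed to 13.4 to 16.0 TPM in IF and 26.3 to 34.9 TPM in FED, and their part in these values was not tested. The most abundant subunit gene, Atp6v0c of the proteolipid ring, had 0.21 and 0.53 (adjusted p = 0.0146 in FMD), and pseudogenes named after it could share its reads, so its level is uncertain. The 5 other subunits, Atp6v0a1, Atp6v0e, Atp6v1d, Atp6v1f and Atp6v1g1, were not called in any comparison. In FMD vs FED they ran from 0.26 (Atp6v0a1) to 0.57 (Atp6v0e), and the latter has the CACGTG motif next to its start.

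Ragulator is the scaffold for mTORC1 on the lysosome. None of Lamtor1, Lamtor2, Lamtor4 and Lamtor5 was called by limma (0 in IF and 2 in FMD at an unadjusted p under 0.05). Of all 4665 genes, 1677 in IF and 3216 in FMD were higher at that p. Of the 4 genes, 0 lay above the median of all genes in either diet (medians 0.01 in IF and 0.23 in FMD). Lamtor1, the subunit that anchors the complex in the membrane, was at 73.8, 55.1 and 67.8 TPM in FED, 60.7, 61.9 and 57.6 TPM in IF and 92.5, 59.7 and 60.5 TPM in FMD livers. Apart from FMD replicate 1, the diet libraries lay inside the FED range, and the values were -0.12 and 0.09. Lamtor5 reached 0.42 in FMD (limma adjusted p = 0.0192) and Lamtor4 0.31, both under the fold limit. Lamtor2, the most abundant of them, was -0.14 in IF and 0.15 in FMD, and -0.42 and -0.40 on scaled values (adjusted p = 0.0116 and 0.00925), short of the fold limit.

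**Figure D3:**
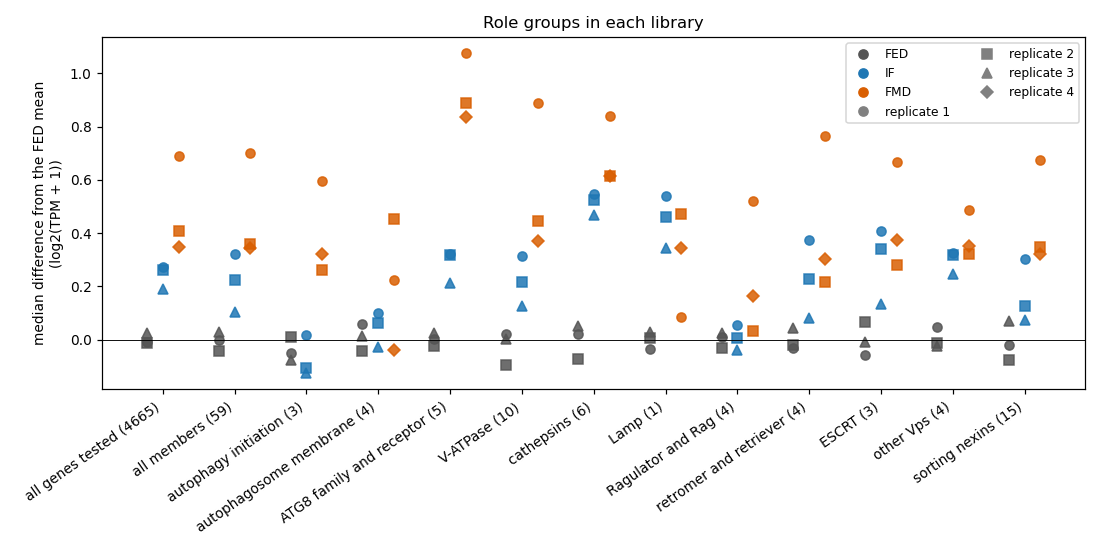
Median difference from the FED mean on the log2(TPM + 1) scale (y axis) of the genes in each role group (x axis), 1 point for each of the 9 libraries, coloured by group and shaped by replicate, beside all 4665 genes. In FMD replicates 1, 2 and 4 the ATG8 family and receptor lie at 1.08, 0.89 and 0.84, above the medians of all genes at 0.69, 0.41 and 0.35, and Ragulator lies below them at 0.52, 0.03 and 0.17.

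Among the 59 genes, no retromer, retriever or ESCRT gene was called in any comparison. None of the 4 retromer and retriever genes was called by limma, while at the adjusted p alone 0 passed in IF and 3 in FMD. Of all 4665 genes, 1112 passed it in IF and 3135 in FMD. Vps35, the backbone of retromer, which returns receptors from endosomes, was at 31.7, 34.3 and 35.5 TPM in FED, 43.9, 40.3 and 36.4 TPM in IF and 61.9, 47.2 and 40.5 TPM in FMD livers. FED lay below the others, and IF and FMD overlapped. The values were 0.24 in IF and 0.53 in FMD (limma adjusted p = 0.0124). The other 3, Vps26b (0.27 and 0.36), Vps29 (0.22 and 0.32) and the retriever gene Vps35l (0.05 and 0.47), also stayed under the fold limit. Of the ESCRT genes, which send ubiquitinated cargo into multivesicular bodies, Vps37a (0.49 and 0.54) and the ATPase gene Vps4b (0.29 and 0.52) were not called. Vps28 of ESCRT-I was at 74.3, 66.7 and 67.7 TPM in FED, 61.4, 65.2 and 55.3 TPM in IF and 83.2, 69.3 and 64.8 TPM in FMD livers. All IF libraries lay below all FED libraries, but the values were -0.20 and 0.05, and -0.47 and -0.49 on scaled values (limma adjusted p = 0.00774 and 0.00404), under the fold limit.

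Of the other Vps genes, Vps9d1, which carries the VPS9 domain of Rab5 exchange factors, rose in FMD. It was at 4.38, 3.89 and 3.87 TPM in FED, 5.74, 5.76 and 5.85 TPM in IF and 7.20, 7.0 and 6.78 TPM in FMD livers. Each group spanned less than 1 TPM and none overlapped, in the order FED, IF, FMD. The log2 fold change was 0.66 in FMD (limma adjusted p = 0.000694) and 0.43 in IF (0.0145), the latter under the fold limit. Vps54 of the GARP tether (0.39 and 0.40), Vps18 of the HOPS and CORVET tethers (0.20 and 0.33) and the chromatin gene Vps72 (0.07 and 0.27) were not called.

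The 15 sorting nexins, which bind phosphoinositides on endosomes and bend or coat the membrane, had 2 genes that rose in IF and 5 in FMD. This was near the share of all genes (10.3% and 35.5% higher). Their medians were 0.16 and 0.45, below the 0.24 and 0.48 of all genes, and on scaled values 0 were called. Snx21 was at 4.98, 4.18 and 5.01 TPM in FED, 8.02, 9.65 and 9.32 TPM in IF and 8.0, 9.34 and 10.1 TPM in FMD livers. Both diets were about 2 times FED with no overlap, and IF and FMD overlapped. It rose by 0.80 in IF (limma adjusted p = 0.00197; 0.57, under the fold limit, on scaled values). The FMD rise was 0.82 (adjusted p = 0.000689). Snx33, an SH3 domain nexin of endocytosis, was at 3.62, 4.20 and 3.89 TPM in FED, 7.31, 7.07 and 5.63 TPM in IF and 8.29, 11.3 and 5.56 TPM in FMD livers. The diet libraries were spread, but none reached down to FED. It rose by 0.89 in FMD (limma adjusted p = 0.00398) and by 0.64 in IF (0.0415), and the IF call was lost under 13 of 22 alternative settings, including the loss of any 1 FED or IF library.

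Snx12 was at 6.97, 6.31 and 8.37 TPM in FED, 9.44, 8.37 and 7.54 TPM in IF and 20.0, 12.9 and 10.1 TPM in FMD livers. FMD replicate 1 was the highest, the other FMD libraries were above all IF and FED libraries, and IF overlapped FED. It rose in FMD by 0.86 (limma adjusted p = 0.00563; 0.60 without FMD replicate 1). Snx6, a nexin with a BAR domain that works with retromer, and Snx7 rose in FMD by 0.67 and 0.64 (adjusted p = 0.0119 and 0.00802). Without FMD replicate 1, the values were 0.42 and 0.47, and neither call held. The Snx6 call was also lost without FED replicate 1 (0.57), and the Snx7 call without FED replicate 2 (0.55). The retromer partner Snx1 was -0.06 in IF and 0.55 in FMD, and 0.61 in FMD vs IF (adjusted p = 0.0690), which did not pass. The remaining 9 nexins were not called in any comparison. They ran from 0.08 (Snx18) to 0.54 (Snx2, a retromer partner like Snx1) in FMD, and Snx2 was 0.39 in IF (limma adjusted p = 0.0334). Snx3, which brings retromer to Wnt carrier cargo, was 0.02 and 0.35.

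Other genes of the pathway, outside the symbol families above, were taken from 6 lists of autophagy, lysosome and endosome genes, of which 94 were tested. In IF, 9 rose and none was called lower by limma (2 at an unadjusted p under 0.05, Gm2a among them with an adjusted p of 0.0309). In FMD, 29 rose and 1 fell, Gm2a (lysosomal ganglioside activator, -0.71). In FMD vs IF, 2 rose, Npc1 and Stam, where 4.67% of all genes rose. These genes too were near the share of all genes (10.3% and 35.5% higher), with medians of 0.21 in IF and 0.46 in FMD. On scaled values, 2 rose and 2 fell in IF, against 3.69% and 3.45% of all genes. In FMD, 3 rose and 3 fell on scaled values, against 5.49% and 5.64% of all genes.

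Of the 16 autophagy partners, 2 rose in IF and 7 in FMD, where 10.3% and 35.5% of all genes rose. Bnip3 (NCBI gene 12176), a mitophagy receptor on the mitochondrial outer membrane, had the largest changes of the list in both diets. It was at 72.1, 96.5 and 97.8 TPM in FED, 316, 351 and 279 TPM in IF and 263, 394 and 312 TPM in FMD livers. Every diet library was more than 2 times every FED library, and the IF and FMD groups overlapped. It rose by 1.82 in IF (limma adjusted p = 0.000156; 1.55 on scaled values) and by 1.84 in FMD (4.64e-05; 1.29 on scaled values). Its relative Bnip3l was 0.54 in IF and rose by 0.88 in FMD (adjusted p = 0.000262). The receptor gene Optn, at 21.7, 24.4 and 23.6 TPM in FED, 45.1, 47.9 and 43.2 TPM in IF and 51.1, 58.9 and 41.3 TPM in FMD livers, rose by 0.94 and 1.07 (limma adjusted p = 0.00127 and 0.000261), with no diet library near FED. Vamp8, a SNARE of autophagosome fusion, rose in FMD by 0.76 and was 0.58 in IF, just under the fold limit. The others that rose in FMD were Nrbf2, a subunit of the autophagy phosphoinositide kinase complex (0.80), Rb1cc1 of the ULK complex (0.77) and the ER-phagy receptor gene Tex264 (0.60).

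Of 18 lysosomal hydrolases, 3 rose in IF and 6 in FMD, and the 3 that rose in IF rose in FMD too. Of all genes, 10.3% rose in IF and 35.5% in FMD. The FMD median of the hydrolases was 0.38, below the 0.48 of all genes, with 7 of the 18 above the latter. Lipa, the lysosomal acid lipase that frees fatty acids from engulfed lipid, was at 70.3, 68.2 and 82.1 TPM in FED, 112, 116 and 111 TPM in IF and 165, 148 and 108 TPM in FMD livers. FED was below both diets, and Lipa rose by 0.62 in IF and 0.91 in FMD (limma adjusted p = 0.0168 and 0.00109). Arsa, arylsulfatase A, rose by 0.83 and 0.95, and Hgsnat, which acts in heparan sulphate breakdown, by 0.72 and 0.80. Gusb, the β-glucuronidase gene, rose by 0.78 in FMD, and the aspartylglucosaminidase gene Aga by 0.67. Lipa, Arsa and Hgsnat were not called on scaled values. Pla2g15, the lysosomal phospholipase A2, was -0.45 in FMD vs IF, and on scaled values it was the one pathway gene called there, where it fell by 0.68 (adjusted p = 0.0206).

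Of 16 genes of the lysosomal membrane and enzyme delivery, 2 rose in IF and 3 in FMD, where 10.3% and 35.5% of all genes rose. Npc1, which exports cholesterol from the lysosome, was at 29.8, 23.4 and 21.7 TPM in FED, 45.4, 44.7 and 37.3 TPM in IF and 63.5, 81.2 and 55.2 TPM in FMD livers. The 3 groups did not overlap, in the order FED, IF, FMD. It rose by 0.75 in IF and 1.38 in FMD (limma adjusted p = 0.0106 and 0.000221), and by 0.62 in FMD vs IF (adjusted p = 0.0487). On scaled values, the FMD rise was 0.84 and still called. The scaled values in IF and in FMD vs IF were 0.48 and 0.36 (limma adjusted p = 0.101 and 0.257), and neither was called. Scarb2, the receptor that delivers glucocerebrosidase, rose by 0.68 and 0.77. Cd63, a tetraspanin of late endosomes, had the largest FMD value of this list at 2.05, but its FMD libraries were at 114, 30.8 and 10 TPM against 6.85 to 7.81 TPM in FED, the same order of libraries as for Cd68.

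Of 11 regulators of mTORC1, AMPK and TFEB, none was called by limma in IF, where 1 passed the adjusted p alone (3 at an unadjusted p under 0.05). Of all 4665 genes, 1112 passed the adjusted p in IF and 1677 were higher at that unadjusted p. In FMD, 5 rose, where 35.5% of all genes rose. They were Ddit4 (2.15), Sesn2 (1.42), Mtor (0.81), Fnip1 (0.77) and Rheb (0.68). The FMD libraries of Ddit4 were at 75.4, 21.4 and 4.72 TPM, the last of them inside the FED range of 2.68 to 4.74 TPM. Ddit4 and Sesn2 encode stress-induced inhibitors of mTORC1, while Mtor and Rheb encode the kinase and its activator. Sesn2 was at 2.95, 2.34 and 2.01 TPM in FED, 4.04, 4.16 and 3.97 TPM in IF and 13.6, 8.98 and 4.19 TPM in FMD livers. The IF libraries all lay near 4 TPM, and FMD replicate 4 was close to them while FMD replicates 1 and 2 were higher. Sesn2 rose in FMD by 1.42 (limma adjusted p = 0.00280; 0.97 on scaled values, also called). Of the 12 ESCRT partners, none was called by limma in IF, where 3 passed the adjusted p alone (6 at an unadjusted p under 0.05). In FMD, 6 rose, where 35.5% of all genes rose, with a median of 0.67 beside 0.48 for all genes. Hgs, the ESCRT-0 subunit that first gathers ubiquitinated cargo, was the largest at 0.94 (adjusted p = 0.000672). The ESCRT-III genes Chmp1b (0.77), Chmp2b (0.90) and Chmp4b (0.76) rose too, as did Ubap1 of ESCRT-I (0.77) and the ESCRT adaptor gene Ptpn23 (0.92). The Hgs partner Stam was the one that rose in FMD vs IF (0.59, limma adjusted p = 0.0306). On scaled values, none of these 12 genes was called in any comparison, and their FMD median was 0.16, beside 0.01 for all genes. Of the 21 endosomal sorting partners, 2 rose in IF and 2 in FMD, where 10.3% and 35.5% of all genes rose. Their medians were 0.08 and 0.37, below the 0.24 and 0.48 of all genes. Commd5 (0.80 and 0.77), a subunit of the COMMD complex that works with retriever, rose in both diets. So did Tgfbrap1 (0.69 and 0.72), a subunit of CORVET. On scaled values, neither was called, while Commd10 fell in IF (-0.63) and Commd7 fell in FMD (-0.76).

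**Figure D4:**
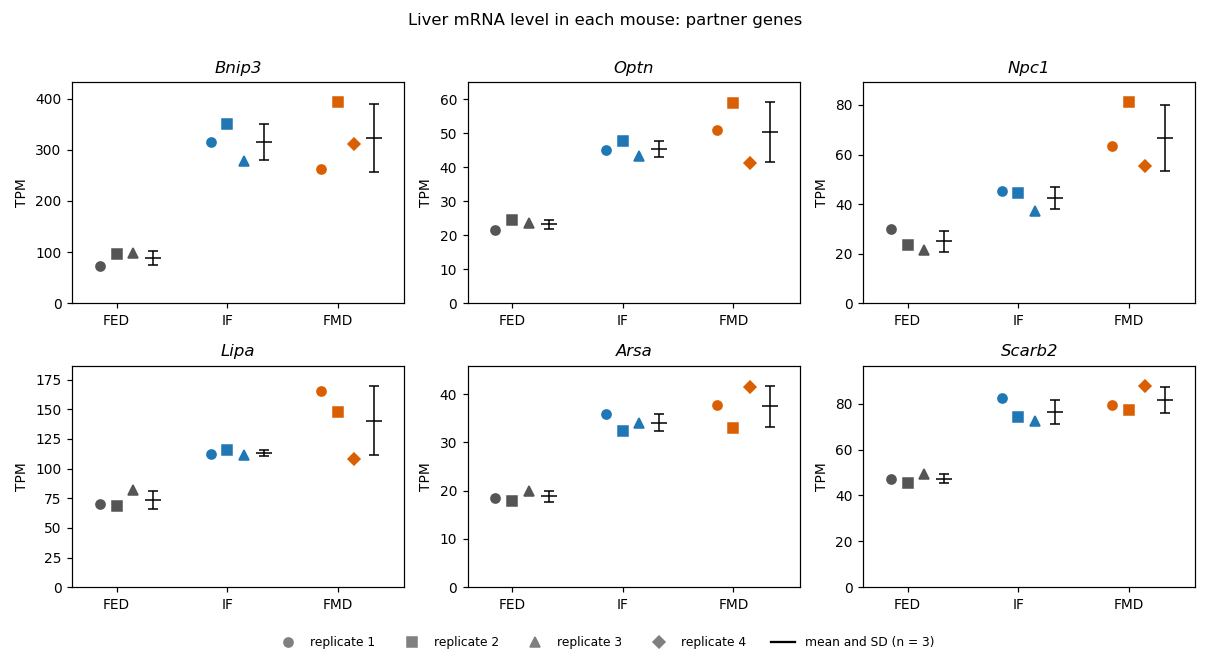
TPM in each of the 9 libraries (points, 3 per group) with group means and SD for 6 pathway genes outside the symbol families: Bnip3, Optn, Npc1, Lipa, Arsa and Scarb2, each panel on its own linear axis from 0. FED libraries lie below every diet library in all 6 panels, and Npc1 is the one whose FMD libraries all lie above IF.

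Taking the 59 genes as a whole, FMD livers were the most spread. The mean distance between libraries on the log2 scale was 1.38 within FED and 1.45 within IF, and 3.29 within FMD. IF livers were at a mean distance of 3.11 from FED livers, and FMD livers at 4.83 from FED and 3.19 from IF livers. FMD livers thus differed from each other about as much as from IF livers on values as deposited. These distances include the shift of whole libraries, which was largest in FMD replicate 1 (scaling factor 1.43). Distances on scaled values were not computed. The summed level of the 59 genes was 2960 to 3198 TPM in FED, 3609 to 3982 in IF and 6230, 4625 and 4239 TPM in FMD replicates 1, 2 and 4. As a share of all listed TPM, this was 1.09 to 1.12% in FED, 1.1 to 1.16% in IF and 1.45, 1.27 and 1.21% in FMD. The FMD libraries were thus above FED and IF in share as well as in sum. Sqstm1 averaged 789 TPM in FMD against 325 in FED and 396 in IF, and Ctsl 672 TPM against 241 and 368. These genes were a large part of the higher sum and the largest single contributions in FMD replicate 1. On scaled values, the median of the 59 genes in FMD vs FED was -0.04, so the higher share does not describe the typical gene.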

How the data were processed

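The authors made strand-specific libraries from oligo-dT selected liver mRNA of 3 FED, 3 IF and 3 FMD mice and sequenced them on DNBSEQ. The values are TPM as deposited by the authors, with 1 column per library. The submitters' processing notes name mm39 and DESeq2, and the aligner is not given in the sources used here. TPM keeps no depth, so that library depth is unknown and no counting interval is given.

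Libraries were grouped by their labels. Genes averaging at least 1 TPM (4665) were fitted as log2(TPM + 1) with limma 3.58.1 in R 4.3.3 (lmFit, eBayes with a trend, 1 fit of 9 libraries, Benjamini-Hochberg adjustment). A call needed an adjusted p under 0.05 and a change of more than 1.5-fold, limits used in the study. The pseudocount understates changes of low genes. Deviations of same-numbered libraries had correlations of 0.00348 to 0.177, and those of differently numbered libraries -0.202 to 0.211. The numbers are not known to pair mice and were not used as pairs.

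The genes named are, per comparison, the 10 largest called changes without overlap, the 3 smallest adjusted p per role group, genes called lower or called on scaled values, the most abundant gene per role, a fixed list of well-known genes and up to 3 genes per pathway list. Snx7, Ctso, Gm2a, Cd63, Ddit4 and other genes that complete a group or a count were chosen after their values were seen. Genes and lists were chosen with earlier results of these data known. Alternatives covered the pseudocount, filter, scaling, quantile normalization, separate fits, the trend, a replicate block, thresholds and each library left out, and scaled values without each FMD library were added after seeing the data. Figures were drawn with python 3.11.15 and matplotlib 3.10.9.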

Additional observations from a re-analysis of the deposited data

How the results depend on the processing

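On scaled values, the medians of the 59 genes turned from 0.22 to -0.04 in IF vs FED, from 0.47 to -0.04 in FMD vs FED and from 0.24 to -0.02 in FMD vs IF. No call of a single gene changed sign under these alternatives. For genes that rose in IF vs FED (6), the count was 2 on scaled values and 2 after quantile normalization, 3 at an adjusted p under 0.01, 13 with no fold limit, 3 to 7 with 1 library left out (lowest without FED replicate 2), and 3, 3 and 3 on scaled values without FMD replicate 1, 2 or 4. The single gene that fell, Ulk2, was at 0 to 1. For FMD vs FED (17 higher), the count was 2 on scaled values, 2 after quantile normalization, 42 with no fold limit, 14 to 26 with 1 library left out, and 1, 1 and 4 on scaled values without FMD replicate 1, 2 or 4. The count lower in FMD (0) was 1 on scaled values, 1 after quantile normalization, 1 with no fold limit and 1 in each of the scaled fits without an FMD library, and 0 to 0 with 1 library left out. For FMD vs IF (1 higher), it was 2 with a pseudocount of 0.1, 2 with a filter at a mean TPM of 5, 0 with 1 fit per pair of groups, 0 at an adjusted p under 0.01, 3 with no fold limit, 0 to 11 with 1 library left out, and on scaled values 0 without FMD replicate 1 and 2 without FMD replicate 4. The cause of these moves was not tested, apart from the fewer libraries and the changed thresholds themselves.

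For the 94 pathway genes, the count called in IF vs FED (9) was 4 on scaled values, 4 after quantile normalization, 20 with no fold limit, 5 to 12 with 1 library left out, and 5, 4 and 4 on scaled values without FMD replicate 1, 2 or 4. In FMD vs FED (30), it was 6, 6, 65, 27 to 40, and 6, 5 and 8 under the same settings. In FMD vs IF (2), it was 4 with a pseudocount of 0.1, 1 with no filter, 1 on scaled values, 1 after quantile normalization, 0 with 1 fit per pair, 1 without the trend, 0 at an adjusted p under 0.01, 6 with no fold limit, 0 to 11 with 1 library left out, and 1, 1 and 7 on scaled values without FMD replicate 1, 2 or 4.

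With the replicate number as a block, 7 genes rose in IF and 24 in FMD relative to FED, while 10 rose between the diets (FMD vs IF), with 13 pathway genes called there. The labels share 2 numbers between FMD and the other groups, FMD replicate 4 adds nothing to the blocked fit, and the numbers are not known to pair mice. With 1 library left out, 198 calls of single genes remained and 27 were lost, and on scaled values 6 remained and 19 were lost. Groups of 3 are too small for a test of single outlying libraries, and a permutation of 3 against 3 cannot go below 0.10. The unknown depth limits the low genes most, such as Atp6v0d2, Ulk3 and Snx33.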
